A study of Drosophila melanogaster with 4 samples.

Results

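The broad H3K36me2 domains described here are the enriched regions of 15 kb or longer in adult fly heads, where H3K36me2 is dimethylated lysine 36 of histone H3. They were chosen by length alone from the replicate-set list of regions that the authors deposited, on the chromosome arms 2L, 3L, 3R and X, the 4th chromosome and the assembled heterochromatin sequences (named Het). The arm 2R is not among the sequences of the rule and was not analysed here. The rule found 257 domains among the 5173 enriched regions on these sequences and the 6411 regions of the whole list. Both ChIP samples (chromatin recovered with the H3K36me2 W antibody) and their 2 input samples (genomic DNA without that step) came from heads of wild-type Drosophila melanogaster. The strain was Oregon-R (Oregon-R-modENCODE) in all 4 samples, the stage was mixed adult, and no other genotype or treatment was compared. Heads hold neurons, glia, photoreceptors, fat body and muscle, so a domain may reflect all of these cells or a part of them, and fewer cells with the mark cannot be told apart from less mark per cell. The lists hold no expression values, so the labelled tissue could not be checked against markers.

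In Drosophila the enzymes Mes-4 and Ash1 place dimethyl groups on lysine 36, while Set2 trimethylates it over transcribed genes. Ash1 is known for opposing Polycomb silencing, and Kdm4A, a demethylase of this residue, associates with the heterochromatin protein HP1a. Genes in the heterochromatin near centromeres tend to be long, with introns rich in transposon sequence. Coordinates are those of FlyBase release 5, and the gene table used here describes release 6, so no gene, exon or sequence could be assigned to a domain.

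The domains made up 4.97% of the regions on these sequences and 19.8% of their covered length, 5.56 of 28.1 Mb. Their median length was 19.2 kb, with the middle 50% between 16.8 and 23.6 kb and the longest at 85.1 kb. Of the 257 domains, 111 reached 20 kb, 27 reached 30 kb, 8 reached 40 kb and 4 reached 50 kb. Most domains therefore lay close to the limit, with a thin tail of much longer ones.

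Per Mb of sequence the domains were denser on the Het sequences and the 4th chromosome than on the arms. The Het sequences held 31 domains, the 4th chromosome 10, and the 4 arms 216 (49 on 2L, 47 on 3L, 80 on 3R and 40 on X). Of the enriched regions on Het sequences 13.3% were 15 kb or longer, against 6.80% on the 4th chromosome and 4.51% on the arms. By sequence length this was 3.34 domains per Mb on the Het sequences, 7.40 on the 4th chromosome and 2.21 on the arms. Domains held 54.0% of the length covered on the Het sequences and 24.7% of that on the 4th chromosome, against 17.5% on the arms.

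The place of the length limit set the direction of this difference. For all enriched regions the density on Het sequences was 0.513 times that on the arms. The ratio was 0.748 for regions of 10 kb or longer, 1.03 from 12 kb, 1.51 from 15 kb, 2.61 from 20 kb and 5.27 from 30 kb. The Het sequences had fewer regions per Mb than the arms when all lengths were counted, and more per Mb from 15 kb. The same rise appeared in each replicate list. Replicate 1 gave a ratio of 1.64 from 15 kb and 6.03 from 30 kb, and replicate 2 gave 1.71 from 15 kb and 5.68 from 30 kb. Of the 27 regions of 30 kb or longer, 9 lay on Het sequences and 18 on the arms, so most of the longest regions lay on the arms and the last ratio rests on few regions. Unsequenced or repeated stretches were not separated from the sequence lengths, and their part in these ratios was not tested.

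**Figure D1:**
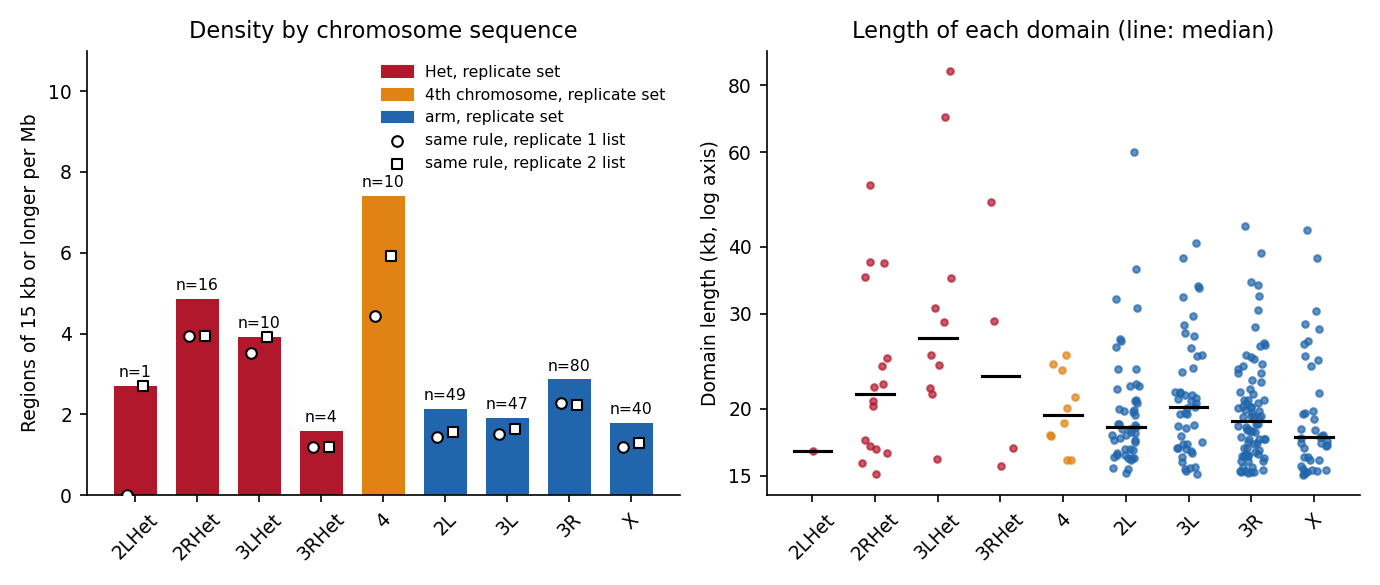
Domains per Mb on each sequence (left; bars from the replicate-set list, open circles and squares from the same length rule in the replicate 1 and replicate 2 lists) and the length of each domain in kb on a log axis (right; black lines are medians). The 4th chromosome stands highest at 7.40 per Mb, and the longest domain, 85.1 kb, lies on 3LHet.

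Among the Het sequences 2RHet held 16 domains (4.87 per Mb), 3LHet 10 (3.91 per Mb), 3RHet 4 (1.59 per Mb) and 2LHet 1. XHet, with 7 regions, and YHet, with 0, had no domain. Among the 4 arms analysed 3R was densest with 2.87 per Mb, followed by 2L with 2.13, 3L with 1.91 and X with 1.78. Of the Het sequences only 2RHet and 3LHet were denser than every arm, while 3RHet, like XHet and YHet, lay below each arm. In the replicate lists the same rule gave 2.29 per Mb in replicate 1 and 2.22 in replicate 2 on 3R, against 1.20 in replicate 1 and 1.29 in replicate 2 on X. The order of 3R first and X last was thus found in all 3 lists, with a gap wider than the difference between replicates. The order of 2L and 3L was reversed in both replicate lists. There the same rule gave 1.43 per Mb in replicate 1 and 1.56 in replicate 2 on 2L, against 1.51 and 1.63 on 3L. The 4th chromosome, a small chromosome whose genes lie in HP1a-rich chromatin, had 6 such regions in replicate 1 and 8 in replicate 2. Its density was 3.35 times that of the arms in the replicate-set list, 2.70 times by the replicate 1 list and 3.47 times by the replicate 2 list. Its domains were not among the longest, with 25.1 kb at most (300969 to 326080).

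The 10 longest domains lay on 7 sequences, and 4 of them lay on Het sequences. The longest, 3LHet 2409788 to 2494855, was 1 region in replicate 1 and 2 regions in replicate 2, parted there by 65 bp. Each replicate covered 99.8% of it. Next was 3LHet 1303846 to 1373612 (69.8 kb), which was 2 regions in both replicates, 225 bp apart in the first list and 199 bp apart in the second. The longer piece measured 42.3 kb in both lists, so both lists broke this domain at the same place.

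The longest domain of the arms, 2L 4478011 to 4538228 (60.2 kb), was whole in replicate 1 and 3 regions in replicate 2, with gaps of 593 and 162 bp. It was followed by 2RHet 3127420 to 3179570 at 52.2 kb, which replicate 2 parted by 7 bp. Domain 3RHet 1934715 to 1983189 (48.5 kb) was 3 regions in replicate 1, with gaps of 1775 and 366 bp, and 1 region in replicate 2. Some of these breaks were thus wide and others only a few bases. Domains 3R 24517011 to 24560778 (43.8 kb) and 3L 22998126 to 23036307 (38.2 kb) were whole in both lists. Domains X 11829707 to 11872743 (43.0 kb) and 3L 23226144 to 23266862 (40.7 kb) were 2 regions in replicate 1 and whole in replicate 2. The remaining one, 3R 22390561 to 22429607 (39.0 kb), was broken in both, by a gap of 1736 bp (and one of 5 bp) in replicate 1 and a gap of 2380 bp in replicate 2. Of the sequences not among these, the 4th chromosome had its longest domain as given above, and the 2LHet domain, 15760 to 32414, measured 16.7 kb.

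**Figure D2:**
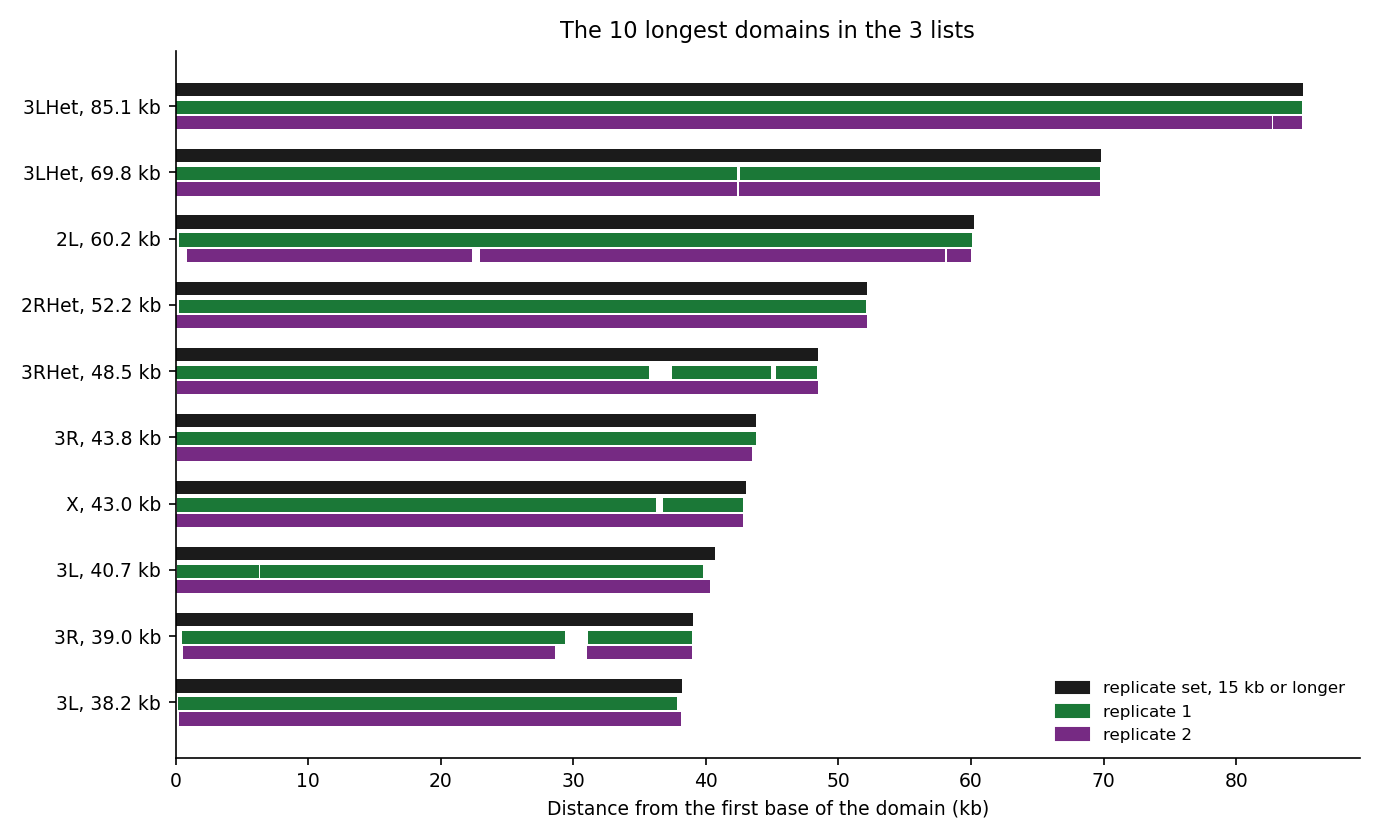
The 10 longest domains, drawn as bars from the first base of each domain (kb), with the replicate-set list in black, replicate 1 in green and replicate 2 in purple. White breaks are bases outside any region of that list, and breaks of a few bases are too narrow to be seen. Breaks fall at the same place in both replicates in the 69.8 kb domain of 3LHet and the 39.0 kb domain of 3R.

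The score of a region is the authors' own value, and its scale is not stated. Domains scored a median of 1.67, with the middle 50% between 1.40 and 2.06, against a median of 0.812 for the 4916 regions under 15 kb. Of the domains 103 scored above 1.82, the value that 5% of the shorter regions exceeded, and 1 scored below the median of the shorter regions. Score and length come from the same list, so this contrast is a description only. Between score and length the Spearman rho was 0.18 across the 257 domains and 0.80 across all 5173 regions. The limit of 15 kb narrows the range of lengths, which by itself can lower rho. The lower value therefore does not show that score follows length less among domains. Both are descriptions across regions of the same libraries.

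The highest score of a domain, 3.32, was that of 2RHet 2806617 to 2823665, only 17.0 kb long, and its replicate regions scored 3.31 and 3.34. Next were 2L 182836 to 201558 at 3.16, 2RHet 212798 to 247959 at 3.11, the 85.1 kb domain of 3LHet at 3.01 and X 10262019 to 10277054 at 2.95. The first 3 of these and the X domain were whole in both replicates. The lowest score, 0.713, also lay on 2RHet, at 1888166 to 1903968. After it came 3L 16590430 to 16610592 at 0.832, 3R 10333708 to 10350084 at 0.873, 3R 14572668 to 14588647 at 0.879 and 2L 11986223 to 12002631 at 0.909. Of these 5 the 2L domain was whole in both replicates, and the other 4 were broken in at least 1 of them. Heterochromatin thus held both extremes of the score.

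Domains on Het sequences had a median score of 2.34, against 1.65 for those on the arms. With the length-weighted score of the replicate regions inside each domain these medians were 2.32 in replicate 1 and 2.39 in replicate 2 on Het sequences, against 1.69 in replicate 1 and 1.65 in replicate 2 on the arms. The regions under 15 kb showed the other order, with a median of 0.685 on Het sequences against 0.823 on the arms. On the 4th chromosome the domains had a median of 1.52. Of the 64 highest-scoring domains 21 lay on Het sequences and 9 on 3R, and of the 64 lowest-scoring 2 lay on Het sequences and 31 on 3R. The arm with most domains therefore supplied many of the weaker ones.

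**Figure D3:**
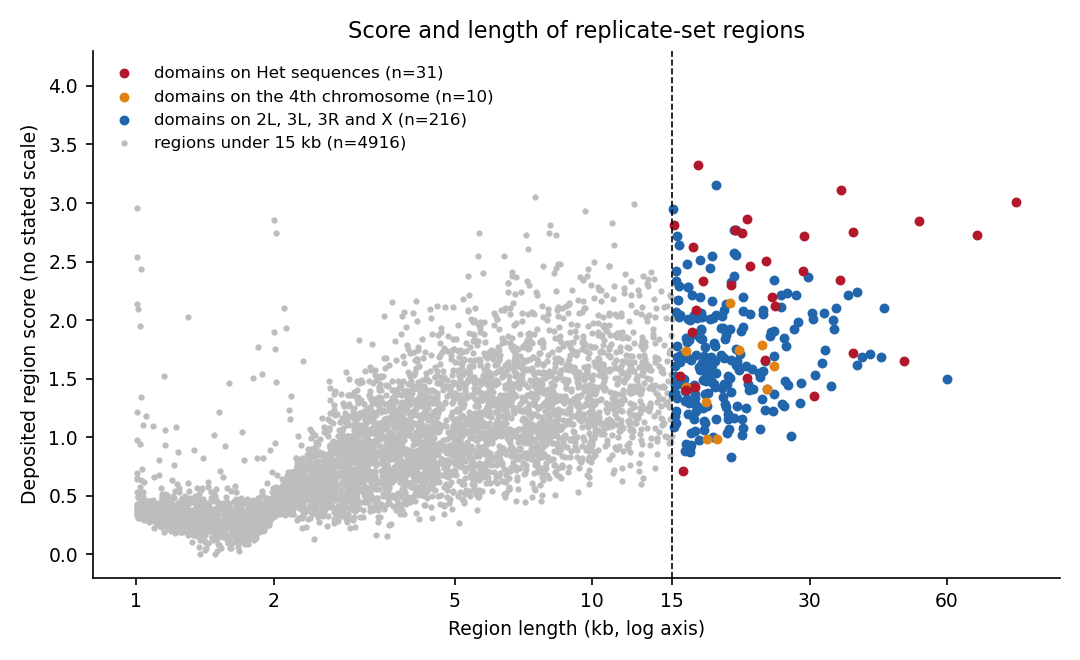
Deposited score against length (kb, log axis) of the replicate-set regions on the sequences of the rule, with grey points under the 15 kb limit (dashed line) and coloured points for domains. Domains on Het sequences (red) have a median of 2.34 and those on the arms (blue) one of 1.65, and the red points reach furthest to the right.

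Along the arms the domains were unevenly spread. In 96 full windows of 1 Mb on 2L, 3L, 3R and X the median was 2 domains, 17 windows had 0, and 10 windows with 5 or more held 58 domains between them. The fullest window, with 8, was 3R 20000001 to 21000000, followed with 7 each by 2L 1 to 1000000 and 3R 11000001 to 12000000. These 3 windows, and the stretches given next, were chosen after seeing the values. The longest stretch without a domain measured 3.64 Mb on X (17829143 to 21472157), 3.06 Mb on 3R (7269754 to 10333707), 2.50 Mb on 2L (465502 to 2966926) and 2.30 Mb on 3L (12761577 to 15057784). The 2 Mb next to the centromere held 8 domains on 3R, 7 on 3L, 5 on 2L and 2 on X. Per Mb this was 4.0 against 2.84 in the middle of the arm on 3R, 3.5 against 1.70 on 3L, 2.5 against 1.95 on 2L, and 1.0 against 1.68 on X. The centromere end was thus richer on 3 arms and poorer on X. At the telomere end the 2 Mb held 4 domains on 3R, 5 on 3L, 7 on 2L and 7 on X. That gave 2.0 per Mb on 3R, 2.5 on 3L, 3.5 on 2L and 3.5 on X. The telomere end was thus also richer than the middle on 3 arms, and poorer on 3R.

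Many domains had another one close by. The distance from edge to edge to the nearest other domain had a median of 84.0 kb, with the middle 50% between 23.7 and 232 kb. Of 257 domains 137 had a neighbour within 100 kb, or 53.3% (Wilson 95% interval 47.2 to 59.3%). The interval takes the domains as independent. Near domains count each other, so it may be too narrow. A neighbour was this near for 71.0% of the domains on Het sequences (22 of 31) and for 9 of 10 on the 4th chromosome, against 49.1% on the arms (106 of 216). The median distance was 5.79 kb on 3LHet, 15.7 kb on 2RHet and 130 kb on 3RHet (4 domains), against 80.2 kb on 3R, 114 kb on X, 120 kb on 2L and 134 kb on 3L. The short distances were thus those of 3LHet and 2RHet, while 3RHet lay within the range of the arms. Where domains are denser they are also nearer, so these distances repeat the densities in part. Domains with a neighbour within 100 kb and those without had median lengths of 19.3 and 18.9 kb and median scores of 1.68 and 1.65, so near and lone domains were alike in both.

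Joined wherever the gap was at most 100 kb, the domains formed 51 chains of 2 or more and left 120 domains alone. There were 34 chains of 2, 7 of 3 and 10 of 4 or more, and the last held 48 domains, 20 of them on 3R. The largest chain had 8 domains over 484 kb of 3R (20464481 to 20948633). They filled 31.2% of it, and with 20 shorter regions the cover reached 52.3%. It held 6 regions of 15 kb or longer in replicate 1 and 7 in replicate 2. This chain was long and loose, with gaps of 27.4 to 85.2 kb.

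Of the 10 chains of 4 or more, the one of 3LHet was filled most. The 5 domains of 3LHet 1217067 to 1438508 filled 69.6% of 221 kb, and 82.5% with the shorter regions. At the end of the same sequence 3 domains filled 94.8% of the 146 kb from 2409788 to 2555470, a chain chosen after its values were seen. Its last domain stopped 21 bp before the end of 3LHet and was the only domain within 1 kb of a sequence end. On 3L, the 5 domains of 22998126 to 23331263 filled 46.5% of 333 kb in the 2 Mb nearest the centromere. The 4 domains of 2RHet 1849488 to 1988192 filled 55.4% of 139 kb, and each replicate list held only 1 region of 15 kb or longer there. The last chain shows that a chain in the replicate-set list need not be one in the replicate lists.

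The other chains of 4 or more lay on the arms. On 2L, 5 domains filled 46.0% of 4965263 to 5215201 and 5 filled 43.6% of 142845 to 346116. On 3R, 4 domains filled 54.8% of 18431543 to 18576784, 37.8% of 11034452 to 11231484 and 29.6% of 25672577 to 25950915. On 3L, 4 domains filled 57.4% of 9623027 to 9744882. In the 3R chain starting at 11034452 shorter regions raised the cover to 84.8%, with 13 regions under 15 kb among the 17 regions of its 197 kb. The X chromosome and the 4th chromosome had chains of at most 3.

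**Figure D4:**
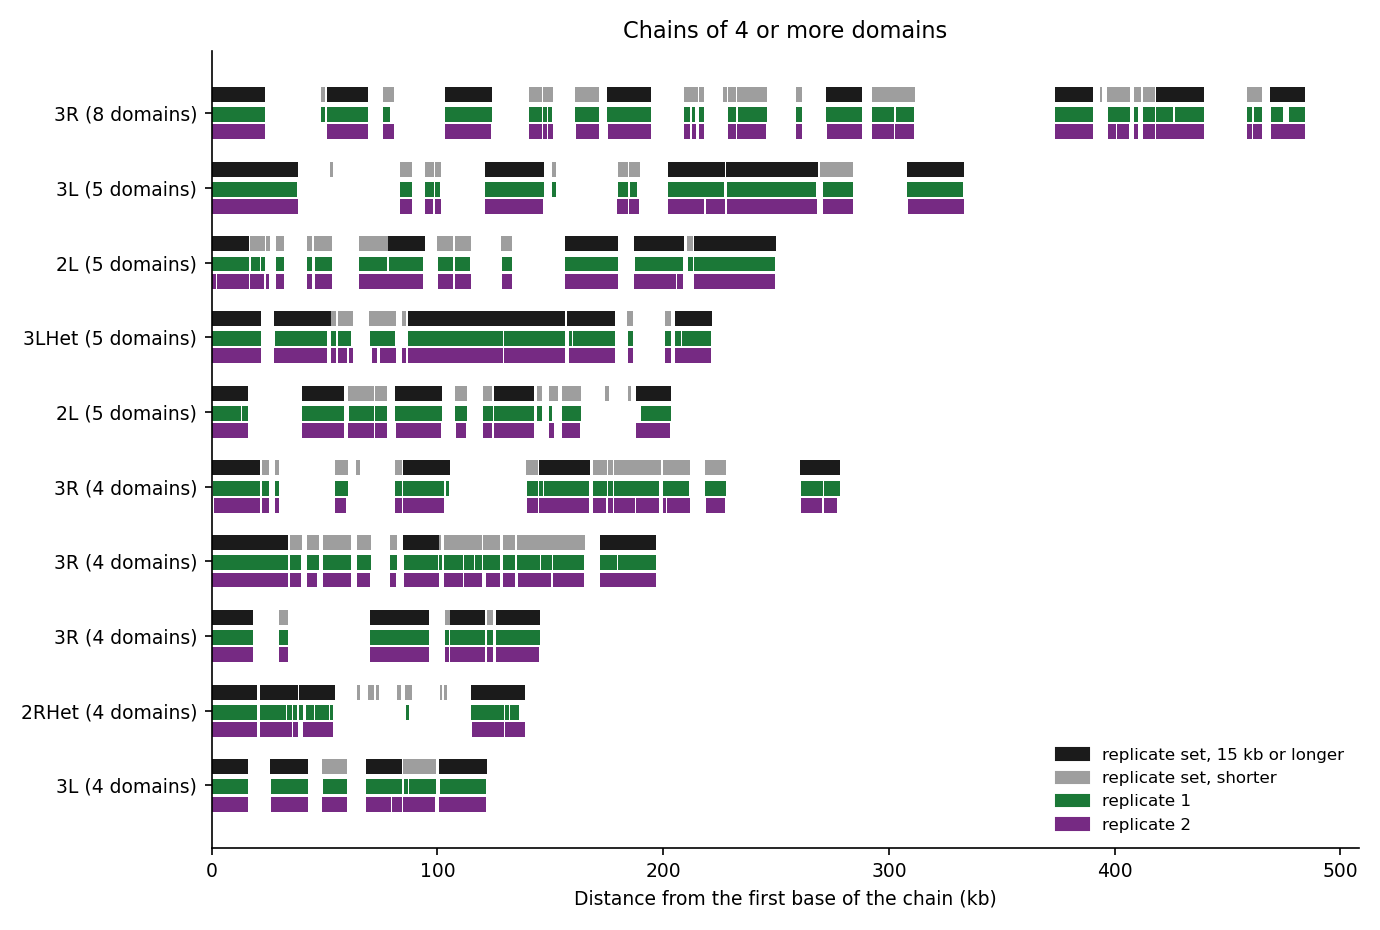
The 10 chains of 4 or more domains, drawn from the first base of each chain (kb), with domains in black, shorter replicate-set regions in grey, replicate 1 in green and replicate 2 in purple. Neighbouring domains less than about 1 kb apart run together at this scale. The 8 domains of the 3R chain spread over 484 kb, while the 5 domains of 3LHet fill 69.6% of 221 kb.

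Neighbouring domains could be almost in contact. Of 248 pairs of consecutive domains 23 were at most 10 kb apart and 6 less than 1 kb apart. The closest pair, 3R 11034452 to 11051043 and 11051099 to 11068354, was parted by 55 bp. It was followed by 2RHet 1277754 to 1315200 and 1315375 to 1335998 (174 bp), 2RHet 1871053 to 1887891 and 1888166 to 1903968 (274 bp), 2L 19711759 to 19731443 and 19731839 to 19755534 (395 bp), and 3L 23200244 to 23225369 and 23226144 to 23266862 (774 bp). No region of either replicate list spanned the gap of any of the 248 pairs, so even the narrowest of these breaks stood in all 3 lists. The lists are not independent here, since the replicate-set list combines these replicates and its regions were a little wider than theirs. Scores on both sides of such a break could be equal or far apart: they were 2.75 and 2.77 for the 174 bp pair and 1.43 and 0.713 for the 274 bp pair.

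Whether the replicates hold the domains as they stand in the replicate-set list was asked next. Both replicate lists marked every domain: 257 of 257 were overlapped by a region in each list, where 81.1% of all 5173 regions were. This was not particular to the domains, since all regions of 5 to 10 kb and of 10 to 15 kb were overlapped too. The 979 regions missing from a replicate list were all under 5 kb. The replicate lists did not always hold a domain as 1 region. In replicate 1 a domain was 1 region in 166 cases, 2 in 67 and 3 or more in 24, and in replicate 2 it was 1 region in 167 cases, 2 in 74 and 3 or more in 16. A domain is called whole in a list where exactly 1 region overlapped it, whatever share that region covered. Whole in both lists were 128 of 257, or 49.8% (Wilson 95% interval 43.7 to 55.9%), where the share over all 5173 regions was 68.1%. Where the single region also had to cover at least 95% of the domain, 106 were whole in both lists. With replicate regions less than 1 kb apart joined, 227 of 257 were whole in both lists. Several regions in both lists were found for 52 domains, 38 were broken only in replicate 2 and 39 only in replicate 1. The number broken was thus nearly equal in the lists, but the domains often differed.

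A longer region offers more room for a break, so breaks were also counted by length. Domains had 2.14 breaks per 100 kb in replicate 1 and 1.94 in replicate 2, against 1.98 in replicate 1 and 1.65 in replicate 2 for all regions under 15 kb. Among the shorter regions the count was 3.15 in replicate 1 and 2.81 in replicate 2 for those of 10 to 15 kb, and 0.526 in replicate 1 and 0.444 in replicate 2 for those under 5 kb. Domains of 30 kb or longer had 1.37 breaks per 100 kb in replicate 1 and 1.55 in replicate 2. Breaks by length were thus sparser in the longest domains than in all domains or in regions of 10 to 15 kb. Only 9 of these 27 longest domains were whole in both lists. The count for regions under 5 kb cannot be compared with those of longer regions. So short a region has little room to be listed in pieces, and regions missing from a replicate list add length but no breaks. The count for all regions under 15 kb includes these short regions, so its contrast with the domains is limited in the same way. Of the 3216 regions under 5 kb, 1.37% were broken in replicate 1 and 1.18% in replicate 2, and 979 were missing from at least 1 replicate list.

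Breaks were mostly narrow. The 227 breaks of domains in the replicate lists were 274 bp wide in the median for replicate 1 and 262 bp for replicate 2. Of them 72 were under 100 bp, and at 2 of them the regions touched, with 0 bases between them. At the other end 40 were over 1 kb, and the widest break of each list was 2670 bp for replicate 1 and 2491 bp for replicate 2. Of the 119 breaks of replicate 1, 51 lay within 200 bp of a break of replicate 2 (42.9%). Of the 108 breaks of replicate 2, 51 lay within 200 bp of one of replicate 1 (47.2%). Breaks over 1 kb were matched in this way in 13 of 22 cases in replicate 1 and 12 of 18 in replicate 2. The distance of 200 bp was chosen after seeing the data.

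Domains of high score were broken less often. Of the 64 highest-scoring domains 48 were whole in both replicates, with 12 breaks in replicate 1 and 11 in replicate 2. Of the 64 lowest-scoring 23 were, with 49 breaks in replicate 1 and 44 in replicate 2. The median score was 1.91 for domains whole in both lists and 1.42 for those broken in both, while their median lengths were 18.3 kb (whole) and 19.9 kb (broken). The scores and the breaks come from the same libraries, so the values only describe how they went together. By chromosome the whole domains were 14 of 31 on Het sequences and 4 of 10 on the 4th chromosome, against 110 of 216 on the arms, where X had the fewest with 16 of 40.

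Even where broken, the domains were almost fully covered. Replicate regions covered 97.1% ± 0.062 (SD, n = 2) of the domain length. Single domains were covered over 81.0 to 100% in replicate 1, with a median of 98.5%, and over 82.9 to 100% in replicate 2, with a median of 98.4%. In both lists at once 175 of 257 were covered over at least 95% (68.1%, Wilson 95% interval 62.2 to 73.5%), where 26.6% of all 5173 regions were. The same number of uncovered bases is a smaller share of a longer region, so this contrast depends on the length that chose the domains. Mean cover of the total length was 77.4% for regions under 5 kb, 93.3% for 5 to 10 kb and 95.6% for 10 to 15 kb. Cover under 90% was found for 21 domains in replicate 1 and 15 in replicate 2. The outer edges of the replicate regions lay a median of 79 bp from the domain edge in replicate 1 and 80 bp in replicate 2, and 87.5% of the edges in replicate 1 and 88.7% in replicate 2 fell inside the domain. The replicate-set regions were thus a little wider than those of either replicate.

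**Figure D5:**
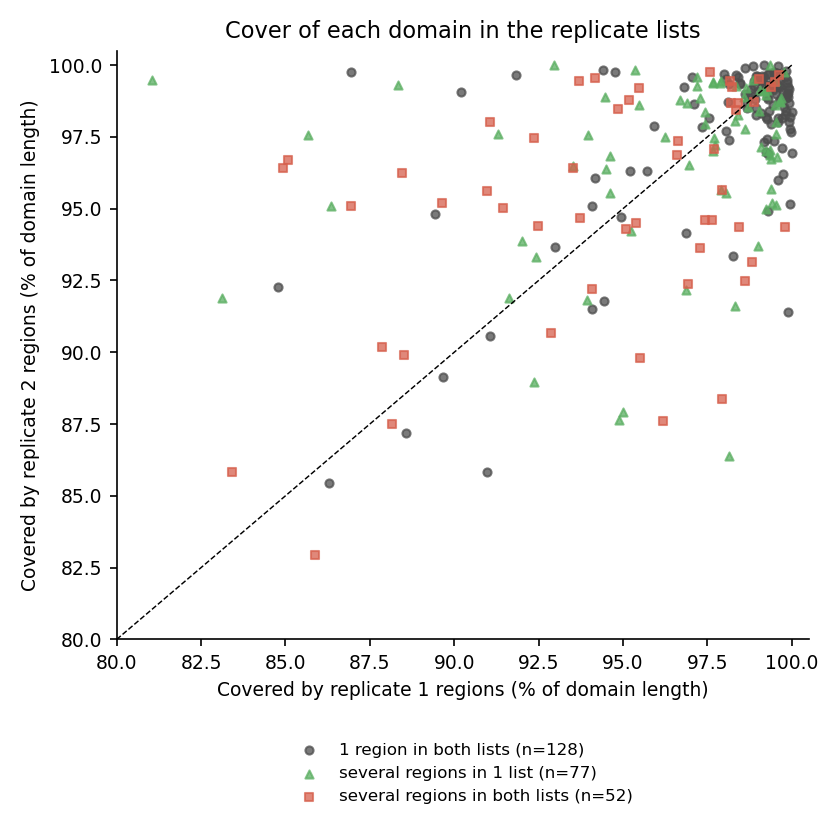
Share of each domain's length covered by replicate 1 regions (horizontal, %) and by replicate 2 regions (vertical, %); 1 point is 1 domain, the dashed line marks equal cover, and shapes show how the lists hold it. Both axes start at 80%. Most points sit near 100% in both lists, with medians of 98.5 and 98.4%, and the lowest points are at 81.0% in replicate 1 and 82.9% in replicate 2.

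The most broken domain was 2RHet 1888166 to 1903968, the one with the lowest score. It was 5 regions in replicate 1, with gaps of 1174, 324, 95 and 179 bp, and 2 in replicate 2. Its longest piece was 3.96 kb in replicate 1 and 7.72 kb in replicate 2, so neither list showed a broad domain there. Domain 2L 12690979 to 12721746 (30.8 kb) was 3 regions in replicate 1 and 4 in replicate 2, as was 3R 6677737 to 6698501. Domain 3R 19581240 to 19607382 was 4 regions in replicate 1 and 3 in replicate 2, and X 2064090 to 2081010 was 4 in replicate 1 and 2 in replicate 2.

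The largest difference in cover between the replicates was at 3R 20933454 to 20948633, with 81.0% in replicate 1 and 99.5% in replicate 2. A gap of 2670 bp in replicate 1 made up most of this difference. Next was 2L 330950 to 346116, with 87.0% in replicate 1 and 99.8% in replicate 2, and 3L 6720567 to 6735685, with 85.7% in replicate 1 and 97.6% in replicate 2. In the opposite direction, 3R 11768319 to 11786640 had 98.1% in replicate 1 and 86.4% in replicate 2. The fifth, 2RHet 1964203 to 1988192, had 85.1% in replicate 1 and 96.7% in replicate 2. No domain differed by more than 18.4 percentage points.

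Least covered by both lists together was 2L 19731839 to 19755534, with 85.9% in replicate 1 and 82.9% in replicate 2. Both lists broke it widely, by 2356 and 748 bp in replicate 1 and by 2491 and 1412 bp in replicate 2. The 2RHet domain of lowest score came next, with 83.4% in replicate 1 and 85.8% in replicate 2. Domain 3RHet 2434105 to 2449719 was 1 region in both lists but began 1987 bp further in for replicate 1 and 2093 bp for replicate 2. The list of 5 is completed by 2L 21825 to 40279, with 83.1% in replicate 1 and 91.9% in replicate 2, and 3R 14572668 to 14588647, with 88.2% in replicate 1 and 87.5% in replicate 2. In the 2L domain at 21825 the right edge also lay 1262 bp further in for replicate 1 and 1498 bp for replicate 2, and in the 2RHet domain the left edge lay 1650 bp further in for replicate 2. Breaks, edges or both thus made up the uncovered bases in these domains.

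Under the same length rule the replicate lists held fewer such regions, with 192 from replicate 1 and 202 from replicate 2 where the combined list had 257. All 192 of replicate 1 and 201 of the 202 of replicate 2 overlapped a domain. The exception, 4 488335 to 503457 (chosen after its value was seen), was 2 regions in the replicate-set list. Of the 257 domains 168 were overlapped by a region of at least 15 kb in both lists, and 37 by none in either. Those 37 reached 15 kb only in the combined list. The domains just above the limit were 3 of similar length: X 10262019 to 10277054 measured 15036 bp, X 17814062 to 17829142 measured 15081 bp and 2RHet 2775755 to 2790873 measured 15119 bp. Just below it were 3L 19874644 to 19889607 at 14964 bp, 3L 2647950 to 2662893 at 14944 bp and 3R 7713691 to 7728625 at 14935 bp. These 3 scored 2.01, 1.01 and 2.20, within the range of the domains.

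The surroundings of the domains were close to those of shorter regions in these counts. Another region of the list lay within 1 kb of 51.8% of the domains and of 52.8% of the regions under 15 kb. A stretch of at least 100 kb without a region in any of the 3 lists began within 1 kb of 19 of 257 domains (7.39%, Wilson 95% interval 4.78 to 11.3%) and of 343 of 4916 shorter regions (6.98%, 6.30 to 7.72%). These intervals give counting error only, regions beside the same stretch are not independent, and the difference between the shares was not tested. The longest such stretch beside a domain, 529 kb, ended at 3RHet 1677354 to 1706459, and one of 406 kb began where 3L 22270314 to 22302562 ended. Both examples were picked after seeing the values. Of the 9 regions that the 3 lists name as depleted, 5 lay on 2R, where the rule takes no domain, and none of the other 4 overlapped a domain.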

How the data were processed

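ChIP and input DNA from fly heads were sequenced. Per the submitters' processing notes, the aligner Bowtie 0.12.7 was used. The authors deposited a list of regions for each of the 2 ChIP samples and 1 for the replicate set, each region with a score of no stated scale. Coordinates follow FlyBase release 5, per the file headers. Not given in the sources used here are the region caller, its threshold and how the replicates were combined. A caller that joins or splits neighbouring regions could change every length reported. Read depth is unknown. Separate collections of flies are not stated for the replicates, so their spread may be technical.

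Regions named as enriched were kept, and length was the last minus the first base plus 1. A replicate region was counted for a domain when at least 1 bp overlapped. Scores in the replicates are means weighted by overlapped bases. Distances run from edge to edge. Named domains are the 10 longest, the 5 highest and 5 lowest in score, the longest of each sequence, and the 3 domains just above the limit with the 3 regions just below it, together with 5 each by number of pieces, difference in cover and lowest cover, the 5 closest pairs and every chain of 4 or more. Wilson intervals are at 95%. The members and lists were chosen with earlier results of these data known, and since length in these lists chose the domains, no test was run and all values are descriptions. Alternatives changed the length limit, the joining of regions, the overlap, the score filter, the near distance, the sequence length and the replicate used. The overlap counts were tested on simulated data and against bedtools 2.31.1. The tools were pandas 2.3.3, SciPy 1.17.1 and NumPy 2.4.6 in Python 3.11.15. GC and gene content were not analysed, because no genome or annotation of release 5 was used here.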

Additional observations from a re-analysis of the deposited data

How the results depend on the processing

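Over 7 results 42 alternatives were computed, of which 11 stayed within 1.5 times (counts), within the replicates' SD (values) or within the Wilson interval (share of domains with a neighbour), and 31 moved further. For the share of domain length covered, the main value is the mean of the 2 replicates. Each replicate alone then always lies within their SD, so those alternatives stayed by construction. The SDs come from 2 replicates and are small. The Wilson interval takes near domains as independent, although they count each other, so it is only a rough measure here. The alternative on GC and gene content was not run. No paired analysis was possible because the inputs have no region list and the ChIP samples form 1 group.

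A limit of 12 kb gave 456 domains with 29.2% of the covered length, 235 whole in both replicates, 96.6% cover, 71.7% with a neighbour, a Het to arm ratio of 1.03 and a median score of 1.58. A limit of 20 kb gave 111 domains with 10.9%, 52 whole, 97.6% cover, 37.8% with a neighbour, a ratio of 2.61 and a median score of 1.75. Limits of 10 and 30 kb, added after seeing the data, gave ratios of 0.748 and 5.27, so the ratio lies below 1 at the lowest limit. The share whole in both replicates moved little, at 51.5% from 12 kb and 46.8% from 20 kb. Joining regions less than 1 kb apart gave 511 domains with 42.0% of the covered length, and joining the replicate regions gave 227 whole domains and 97.7% cover. Keeping the higher-scoring 50% gave 26.3% of the covered length in domains, since shorter regions are lost, and 93.1% cover. Distances of 50 and 200 kb gave 39.7 and 69.6% with a neighbour. With each sequence counted only between its outermost regions the ratio was 1.78. Leaving out a replicate gave 16.3 to 16.7% of the covered length, ratios of 1.64 to 1.71, and median scores of 1.69 to 1.70. Except where a limit on length or score selects regions by construction, the cause was not tested. Since read depth is unknown, no limit of detection can be given for a break.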
